A study of Mus musculus with 12 samples.

Results

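The Schlafen genes are a mouse gene family named after the German word for sleep, because forced expression of the founding member held thymocytes out of the cell cycle. Many members are induced by type I interferon, which acts through the receptor chains Ifnar1 and Ifnar2 and the transcription factor Irf9 at interferon-stimulated response elements. Short members hold only the core Schlafen domain, intermediate members extend it, and long members add a helicase-like domain and are mostly nuclear.

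The 7 members described here, Slfn1, Slfn2, Slfn3, Slfn4, Slfn5, Slfn8 and Slfn9, were taken by gene symbol from the 28188 genes of the deposited count table. The family was selected on a strain difference of Slfn5 in B cells that was already known in these data. The B cell strain values of all members are therefore a description, and nothing is read from tests on them. RNA-seq libraries were made from splenic cells of 12 week old mice, with 3 libraries in each of 4 groups. The groups were B cells of NOD, the non-obese diabetic strain that serves as the control, B cells of NOD.Idd2, a NOD strain with the Idd2 diabetes susceptibility locus of B10 origin, and dendritic cells of NOD and of NOD.Idd2. All groups share the NOD background, and the labels name no treatment. The labels do not say how many mice gave each library or whether the libraries came from separate mice, so p-values measure the spread between these libraries.

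B cell libraries held 40344883 to 44632276 counts and dendritic cell libraries 8663421 to 30337812, the shallowest being NOD.Idd2 dendritic cell replicate 3. The labelled cell types held against their markers: the summed level of 7 B cell markers was 11532 to 12208 CPM (counts scaled to library size) in B cells and 457 to 517 in dendritic cells, and that of 8 dendritic cell markers was 9.36 to 11.2 and 3891 to 4196. Xist, the X-inactivation transcript, was at 1564 to 2088 CPM in every B cell library and at 1 to 4 counts in every dendritic cell library, while Y-linked Ddx3y was at 0 counts in B cells and at 239 to 306 CPM in dendritic cells. Cell type and sex therefore cannot be told apart. Replicate 3 of both strains stood apart from the other B cell libraries.

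All 7 members lie in one cluster of 264 kb on chromosome 11 (82951349 to 83215154, GRCm38), and the Idd2 region lies on another chromosome. By the longest coding transcript of the GENCODE annotation, Slfn1 and Slfn2 are the short members with 337 and 378 codons. Slfn3 and Slfn4 are intermediate with 640 and 602, and Slfn5, Slfn8 and Slfn9 are long with 884, 910 and 910. The coding sequences of Slfn8 and Slfn9 were identical at 92.7% of aligned bases and those of Slfn3 and Slfn4 at 92.1%, while every other pair lay between 57% and 73.8%. Of the 50-base stretches of each transcript, 15.4% of Slfn8, 13.1% of Slfn3, 11.2% of Slfn9, 8.37% of Slfn4 and 7.88% of Slfn5 also occurred, on either strand, in another Slfn transcript. For Slfn5 that transcript was the antisense Slfn5os, and for Slfn8 and Slfn9 it was mostly the pseudogene Slfn10-ps. How reads that match several places or the opposite strand were counted is not given in the sources used here, so the levels of these members are uncertain to that extent.

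The start regions of the long members are shown because they hold letters of an interferon-stimulated response element. All 7 members matched RefSeq promoter windows (GRCm38.p6), which span 250 bases before to 50 bases after the start. Of the long members, all 3 held 2 copies of GAAA with 2 bases between, on either strand (in capitals), a core found in 3.44% of 32851 windows. The sequences are given 5′ to 3′ along each gene.
Slfn5 (chr11:82951927-82951976, plus strand): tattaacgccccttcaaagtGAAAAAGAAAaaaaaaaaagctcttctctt
Slfn8 (chr11:83020829-83020878, minus strand): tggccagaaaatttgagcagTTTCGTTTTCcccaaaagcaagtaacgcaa
Slfn9 (chr11:82991846-82991895, minus strand): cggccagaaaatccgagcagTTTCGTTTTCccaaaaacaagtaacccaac
The match ended 146 bases before the RefSeq start in Slfn5, 39 bases before it in Slfn8 and 36 bases before it in Slfn9. RefSeq gives Slfn8 another start, from which the same match ended 127 bases away. GENCODE begins Slfn5 further upstream, at 82951349, so the Slfn5 stretch lies inside the GENCODE span of that gene. The Slfn8 and Slfn9 sequences look nearly alike, as their coding sequences do. No member held the interferon-gamma activated core TTCNNNGAA, which stood in 8.3% of windows.

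The short and intermediate members lacked that response element core in these windows and shared another run of 9 letters, ACTTCCTGG or its reverse complement CCAGGAAGT, found in 0.843% of windows. These letters (in capitals) were chosen after the 4 sequences had been seen. They hold the GGAA of ETS family factors on the opposite strand.
Slfn1 (chr11:83116726-83116774, plus strand): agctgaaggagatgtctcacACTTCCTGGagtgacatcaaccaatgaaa
Slfn2 (chr11:83065037-83065085, plus strand): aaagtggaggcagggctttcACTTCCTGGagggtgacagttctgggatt
Slfn3 (chr11:83191268-83191316, plus strand): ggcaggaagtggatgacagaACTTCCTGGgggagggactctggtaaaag
Slfn4 (chr11:83175093-83175141, plus strand): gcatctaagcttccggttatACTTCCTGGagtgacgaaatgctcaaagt
The run began 74, 55, 42 and 73 bases before the starts of Slfn1, Slfn2, Slfn3 and Slfn4. None of the 7 stretches overlapped an annotated GENCODE exon. A match is a description of these letters and not a site of binding.

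Slfn2, a short member that is needed to keep resting T cells quiescent, had the highest level per kilobase of exon of the 7 members in every group. It stood at 123 ± 13.8 CPM per kilobase (SD, n = 3) in NOD B cells and 136 ± 0.693 in NOD.Idd2 B cells. In dendritic cells Slfn2 was at 104 ± 1.94 CPM per kilobase in NOD and 104 ± 2.29 in NOD.Idd2. By CPM, without length, Slfn5 was at 185 ± 45.1 and Slfn2 at 173 ± 3.22 in NOD dendritic cells, and at 172 ± 22.0 and 173 ± 3.81 in NOD.Idd2 dendritic cells. In B cells the order of levels per kilobase below it was Slfn8, Slfn5, Slfn9, Slfn1, Slfn3 and Slfn4. In dendritic cells Slfn5 stood above Slfn8, with 29.2 ± 7.13 against 23.5 ± 1.61 CPM per kilobase in NOD and 27.3 ± 3.48 against 22.9 ± 1.02 in NOD.Idd2, and the order below them was that of B cells. The libraries of these neighbours overlapped in NOD dendritic cells. Slfn1 and Slfn3 overlapped in every group but NOD B cells, and with the length of the longest coding transcript in place of all exons Slfn3 came above Slfn1. The summed level of the 7 members was 483 ± 22.4 CPM in NOD B cells, 545 ± 16.2 in NOD.Idd2 B cells, 477 ± 53.5 in NOD dendritic cells and 467 ± 29.3 in NOD.Idd2 dendritic cells.

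**Figure D1:**
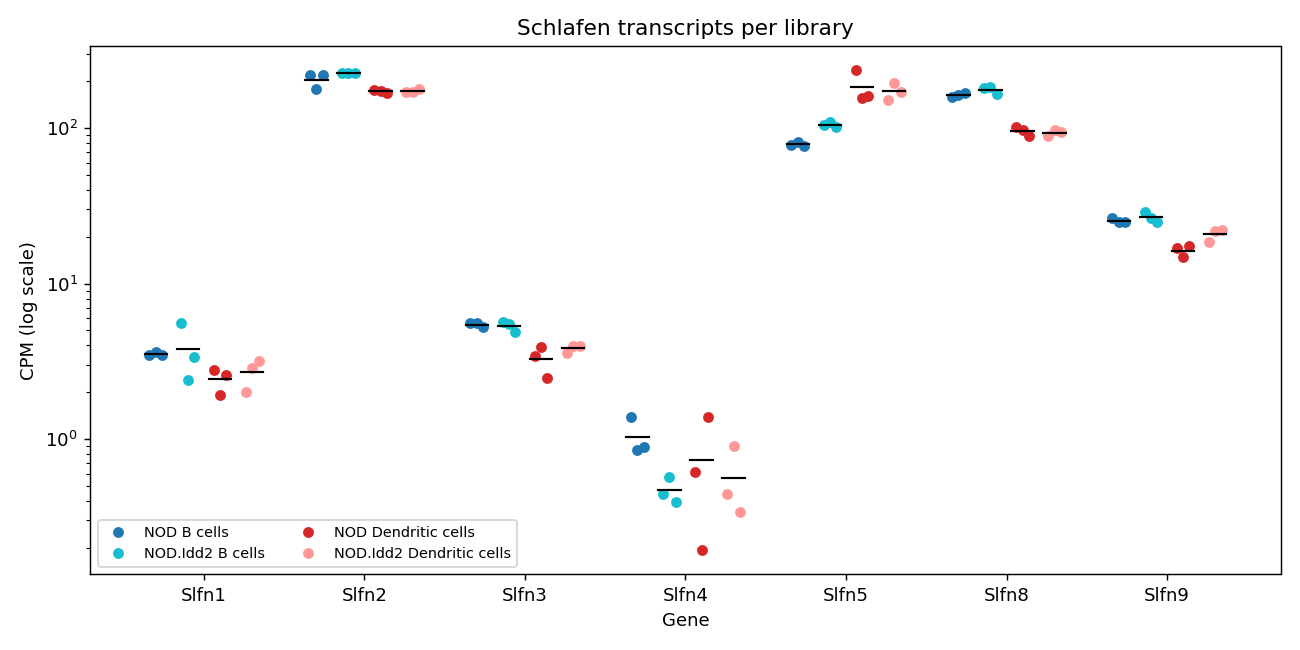
CPM of each member in each of the 12 libraries on a log axis, with points for libraries, colours for the 4 groups and black lines for group means. Slfn2, Slfn5 and Slfn8 stood between 76.9 and 237 CPM, Slfn9 between 14.8 and 28.8, Slfn1 and Slfn3 between 1.93 and 5.69, and Slfn4 between 0.193 and 1.39.

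The comparison of cell types asks where the family is expressed. Slfn5 was higher in dendritic cells in both strains, and Slfn2, Slfn3, Slfn8 and Slfn9 were lower. With edgeR's quasi-likelihood test, adjusted over all genes by the Benjamini-Hochberg method, 5 of 7 members passed 0.05 in NOD, 1 higher and 4 lower, where 76.4% of 16588 genes passed (37.7% higher, 38.7% lower). In NOD.Idd2 it was again 1 higher and 4 lower, against 75.7% of genes (36.7% higher, 38.9% lower). A share of 5 in 7 is near that background, so the count is no result about the family.

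Slfn5, a long nuclear member, was at 78.0, 81.1 and 76.9 CPM in NOD B cells and at 237, 156 and 162 CPM in NOD dendritic cells. In NOD.Idd2 it was at 105, 109 and 101 CPM in B cells and at 151, 195 and 171 CPM in dendritic cells. Every dendritic cell library lay above every B cell library, and NOD dendritic cell replicate 1 was the highest. The level in dendritic cells was 2.35-fold that in B cells in NOD (log2 1.23, SE 0.14, adjusted p = 3.18e-06, edgeR) and 1.64-fold in NOD.Idd2 (log2 0.71, SE 0.14, adjusted p = 0.000402, edgeR). Both contrasts use the B cell levels whose strain difference led to the choice of the family. The gap between 2.35-fold and 1.64-fold is therefore a description.

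Slfn8, another long member, moved the other way. It was at 159, 162 and 169 CPM in NOD B cells and at 102, 97.2 and 89.3 CPM in NOD dendritic cells. In NOD.Idd2 it was at 181, 183 and 166 CPM in B cells and at 88.9, 96.9 and 95.02 CPM in dendritic cells. The cell types did not overlap in either strain. Its level was 1.70-fold lower in dendritic cells in NOD (log2 -0.76, SE 0.06, adjusted p = 1.10e-07, edgeR) and 1.89-fold lower in NOD.Idd2 (log2 -0.92, SE 0.06, adjusted p = 1.97e-08, edgeR).

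Slfn9, the close copy of Slfn8, was at 26.5, 24.9 and 24.9 CPM in NOD B cells and 28.8, 26.5 and 24.9 in NOD.Idd2 B cells. In dendritic cells it was at 16.9, 14.8 and 17.3 CPM in NOD and at 18.5, 21.8 and 22.2 CPM in NOD.Idd2, below every B cell library. The log2 change from B cells was -0.64 (SE 0.09, adjusted p = 1.96e-05, edgeR) in NOD and -0.37 (SE 0.09, adjusted p = 0.00195, edgeR) in NOD.Idd2.

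The short Slfn2 differed less between the cell types than the long members in NOD, but not less than Slfn9 in NOD.Idd2. It was at 218, 179 and 218 CPM in NOD B cells against 176, 174 and 169 in dendritic cells, and at 226, 228 and 226 against 171, 171 and 177 in NOD.Idd2. NOD B cell replicate 2 lay near the dendritic cell libraries but above them all. The log2 change was -0.25 (SE 0.07, adjusted p = 0.00420, edgeR) in NOD and -0.39 (SE 0.07, adjusted p = 0.000159, edgeR) in NOD.Idd2.

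Slfn3, an intermediate member, was at 5.26 to 5.56 CPM in NOD B cells and 2.47 to 3.89 in NOD dendritic cells, and at 4.87 to 5.69 and 3.59 to 3.996 in NOD.Idd2. It was lower in dendritic cells in NOD (log2 -0.74, SE 0.16, adjusted p = 0.000800, edgeR) and in NOD.Idd2 (log2 -0.47, SE 0.16, adjusted p = 0.0163, edgeR). The NOD.Idd2 call was lost without NOD.Idd2 dendritic cell replicate 1 (log2 -0.39, adjusted p = 0.0847).

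Slfn1, the founding short member, and Slfn4, an intermediate member best known from macrophages and other myeloid cells, did not pass in either strain. Slfn1 had a log2 change of -0.53 in NOD (adjusted p = 0.0999, edgeR) and -0.52 in NOD.Idd2 (adjusted p = 0.114, edgeR). It passed in NOD without NOD.Idd2 B cell replicate 1 (adjusted p = 0.0365) and in NOD.Idd2 without NOD.Idd2 B cell replicate 2 (adjusted p = 0.0189). Slfn4 had log2 changes of -0.50 (adjusted p = 0.379, edgeR) and 0.39 (adjusted p = 0.542, edgeR), with 95% intervals of -1.60 to 0.60 and -0.84 to 1.62. It rested on 5 to 36 counts a library in NOD dendritic cells and 3 to 27 in NOD.Idd2 dendritic cells, and without NOD dendritic cell replicate 3 it passed as lower in NOD (log2 -1.33, adjusted p = 0.0321).

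**Figure D2:**
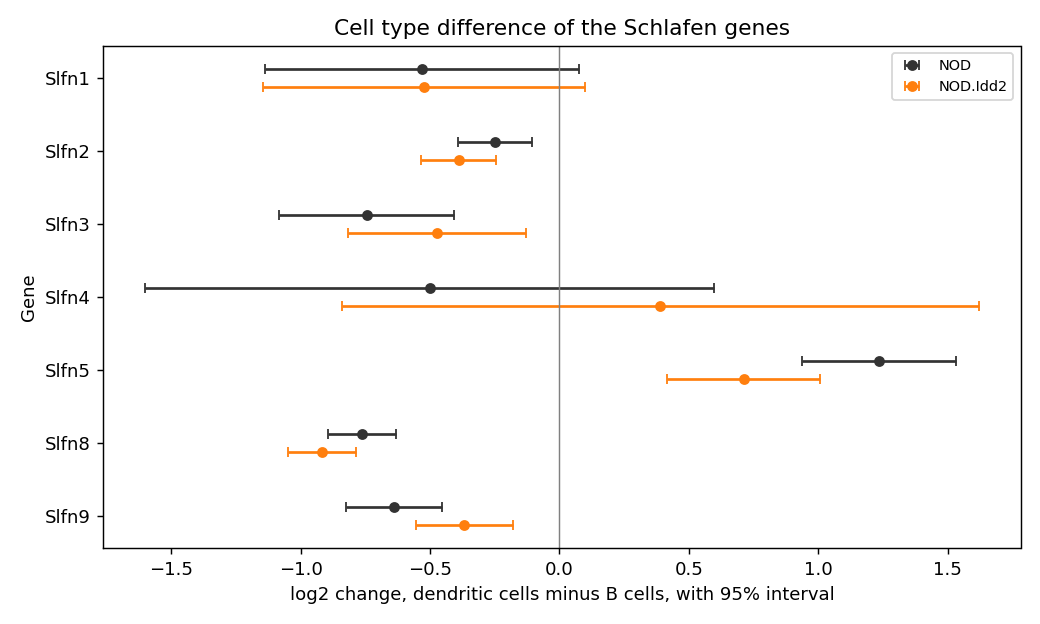
The log2 change of each member from B cells to dendritic cells in NOD (dark) and NOD.Idd2 (orange), with points for the fitted change and bars for its 95% interval. Slfn5 lies to the right of 0 in both strains, Slfn2, Slfn3, Slfn8 and Slfn9 lie to the left, and the intervals of Slfn1 and Slfn4 cross 0.

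Ratios of counts between members within a library do not depend on how libraries are scaled. The ratio of Slfn5 to Slfn8 was 0.491, 0.499 and 0.456 in NOD B cells and 0.582, 0.597 and 0.612 in NOD.Idd2 B cells. In dendritic cells it was 2.31, 1.61 and 1.81 in NOD and 1.70, 2.01 and 1.80 in NOD.Idd2. The more abundant of these long transcripts by raw counts was thus Slfn8 in all B cell libraries and Slfn5 in all dendritic cell libraries. The gap in this ratio between the strains in B cells includes the Slfn5 difference that led to the choice of the family. The ratio of Slfn9 to Slfn8 was 0.147 to 0.167 in NOD B cells, 0.145 to 0.159 in NOD.Idd2 B cells, 0.152 to 0.194 in NOD dendritic cells and 0.208 to 0.233 in NOD.Idd2 dendritic cells. The last group lay above the other groups.

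**Figure D3:**
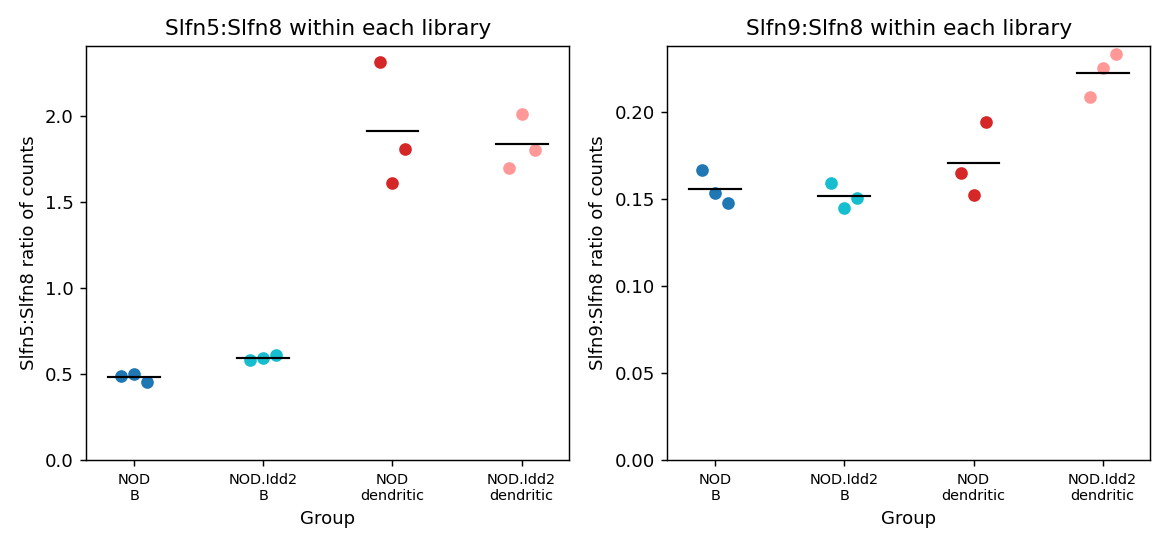
Ratio of Slfn5 to Slfn8 counts (left) and of Slfn9 to Slfn8 counts (right) in each library on linear axes from 0, with points for libraries and lines for group means. The Slfn5 ratio is at most 0.612 in B cells and at 1.61 or above in dendritic cells, and the Slfn9 ratio is highest in the 3 NOD.Idd2 dendritic cell libraries.

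The strain comparison asks what the Idd2 locus of B10 origin goes with in each cell type. In B cells Slfn5 levels in NOD.Idd2, given above, lay above all NOD levels, with a mean of 105 ± 3.90 CPM against 78.7 ± 2.14 (log2 0.42, SE 0.04). Slfn5 alone, 1 of 7 members, passed the test in B cells, where 0.16% of 15011 genes did. The call was lost in 7 of 14 alternatives: on leaving out each B cell library in turn (edgeR adjusted p from 0.0609 to 0.185) and with all 12 libraries in the fit (0.537). It held without both replicate 3 libraries (log2 0.42). As Slfn5's own difference led to the choice of the family, nothing is read from this count.

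Slfn4 had the widest B cell difference, at low counts. It was at 62, 35 and 38 counts in NOD B cells (1.38, 0.846 and 0.885 CPM) and at 18, 24 and 17 counts in NOD.Idd2 B cells (0.444, 0.568 and 0.391 CPM), so that the strains did not overlap (log2 -1.15, SE 0.28). Beside it, the summed level of 10 neutrophil markers was 32.2, 9.36 and 21.8 CPM in NOD B cells and 8.77, 8.80 and 12.8 in NOD.Idd2, with fitted changes below 0 in all 8 markers tested and none called. That of 6 monocyte markers was 22.8, 18.2 and 14.5 CPM against 16.0, 11.4 and 11.3, also below 0 in all 6. That of 8 macrophage markers was higher in NOD.Idd2, at 45.5 to 50.4 CPM against 38.7 to 44.0 in NOD, with 3 fitted changes above 0, 5 below and none called. Of these, Adgre1 averaged 17.9 CPM in NOD and 24.6 in NOD.Idd2. The fall was not particular to myeloid markers. All 6 NK cell markers and all 3 erythroid markers tested were also below 0, as were 5 of 6 dendritic cell markers. Above 0 were 6 of 8 T cell markers and 4 of 5 plasmacytoid dendritic cell markers, and none of these was called. The part of any of these cells in the Slfn4 values was not tested, and in bulk RNA fewer cells of a type and less RNA per cell cannot be told apart.

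The other members differed little between the strains in B cells. Slfn2 had a log2 difference of 0.14 (SE 0.08), and its strains did not overlap because NOD.Idd2 libraries, at 226 to 228 CPM, lay just above the NOD libraries at 179 to 218. Slfn8 had 0.11 (SE 0.05), Slfn9 0.07 (SE 0.06), Slfn1 0.10 (SE 0.29) and Slfn3 -0.03 (SE 0.10), all with overlapping libraries. The strains thus did not overlap in 3 of 7 members, and in 12.8% of all genes tested in B cells, and nothing is read from this count either.

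Slfn1 varied more within one group than between groups. In NOD.Idd2 B cells it was at 5.57, 2.41 and 3.38 CPM, beside summed levels of 8 T cell markers of 66.0, 24.2 and 43.0 CPM. In NOD B cells it was at 3.45, 3.63 and 3.47 CPM beside 35.2, 45.6 and 37.8. The NOD.Idd2 library with the most T cell marker RNA had the most Slfn1, and that with the least had the least. Dendritic cell libraries had 1.93 to 3.18 CPM of Slfn1. Their marker sum of 388 to 476 CPM was mostly Cd4 (375 CPM in NOD, 364 in NOD.Idd2) and Cd5 (32.5 and 28.0), which dendritic cells also express. The defining marker Cd3e averaged 5.07 ± 1.64 (NOD) and 5.06 ± 0.381 CPM (NOD.Idd2) there, against 6.44 ± 0.902 and 6.30 ± 3.29 in B cells, and 6 of the 8 markers had fitted changes below 0 from B cells to dendritic cells in each strain. The part of T cell RNA in the Slfn1 values was not tested.

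In dendritic cells none of the 7 members passed the strain test, where 1.29% of 14441 genes did. At an unadjusted p under 0.05 Slfn9 was 1 of 7, against 11.3% of genes. The Slfn9 levels given above were higher in every NOD.Idd2 than in every NOD dendritic cell library (log2 0.36, SE 0.10, adjusted p = 0.133, edgeR), the one member whose strains did not overlap, as in 16.5% of genes. With no filter on low counts it passed (adjusted p = 0.0109), in a fit that calls 700 genes in place of 186, and DESeq2 and limma-voom called 0 of 7. Slfn5 had a log2 difference of -0.08 with a 95% interval of -0.39 to 0.22, and its libraries overlapped. The intervals were -0.09 to 0.12 for Slfn2, -0.16 to 0.11 for Slfn8, -0.17 to 0.68 for Slfn3, -0.39 to 0.63 for Slfn1 and -1.49 to 1.06 for Slfn4.

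**Figure D4:**
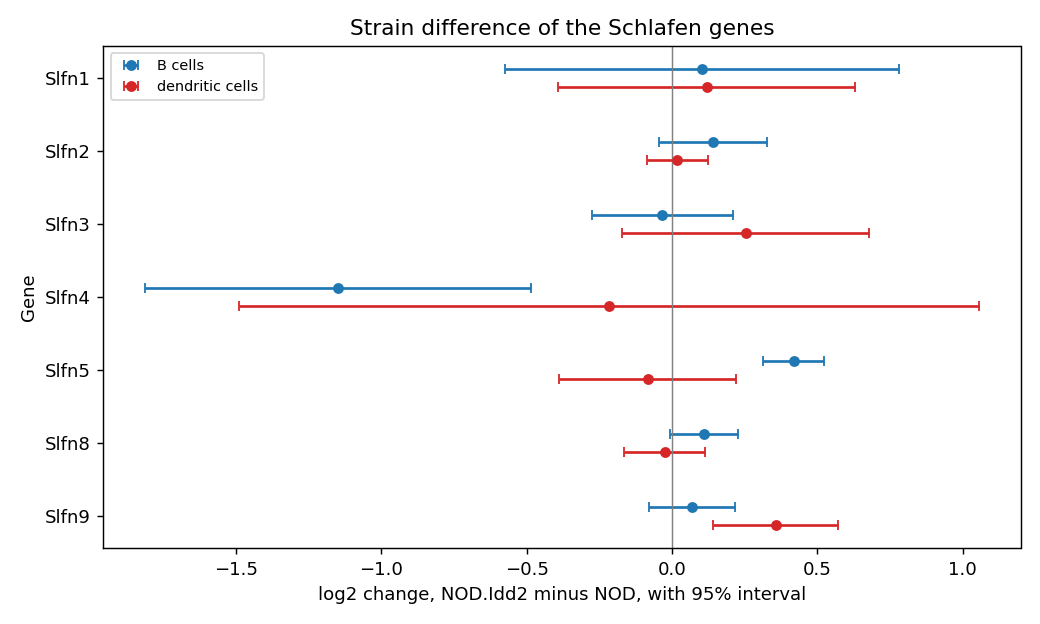
The log2 difference of each member between NOD.Idd2 and NOD in B cells (blue) and dendritic cells (red), with points for the fitted difference and bars for its 95% interval. In B cells the interval lies above 0 for Slfn5 and below 0 for Slfn4, and in dendritic cells it lies above 0 for Slfn9, before any adjustment for the number of genes.

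The difference between the strain effects of the cell types, tested in a fit of all 12 libraries, passed for none of the 7 members and for 0.109% of 16588 genes. At an unadjusted p under 0.05 Slfn5 and Slfn9 were 2 of 7, against 8.22% of genes. DESeq2 and limma-voom called 0 of 7 as well. For Slfn5 the strain effect in dendritic cells minus that in B cells was -0.52 on the log2 scale (SE 0.19, adjusted p = 0.488, edgeR), with an interval of -0.94 to -0.11. It includes the B cell difference that led to the choice of the family. For Slfn9 it was 0.27 (SE 0.12, adjusted p = 0.602, edgeR), with an interval of 0.01 to 0.54.

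Among the other genes of the interferon pathway, some fell in NOD.Idd2 dendritic cells and none passed in B cells. Of 31 interferon response genes, 29 were tested in B cells, with 25 above 0 and a median log2 difference of 0.24, where the median of all genes was 0.01. At an unadjusted p under 0.05 there were 11 of 29, where 6.4% of all genes were, and DESeq2 called 2 as higher. In dendritic cells 30 were tested, 1 rose and 4 fell, where 1.29% of all genes passed in either direction, and the median was -0.24 against 0.00 for all genes. At an unadjusted p under 0.05 there were 20 of 30, where 11.3% of all genes were, and DESeq2 called 8 and limma-voom 4. Oas2 (log2 -0.62, SE 0.10, adjusted p = 0.00813, edgeR) and Oas1a (log2 -0.49, SE 0.08, adjusted p = 0.0105, edgeR), which make the oligoadenylate messenger on sensing double-stranded RNA, fell. So did the nucleic acid sensor Zbp1 (log2 -0.51, SE 0.09, adjusted p = 0.0198, edgeR) and the Oas relative Oasl2 (log2 -0.65, SE 0.13, adjusted p = 0.0363, edgeR). The difference of strain effects between the cell types passed for 0 of 31 by edgeR and by limma-voom, and DESeq2 called 8 as lower. By edgeR 18 of 31 had an unadjusted p under 0.05, where 8.22% of all genes did, and the median was -0.47 against -0.02 for all genes.

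Of 13 interferon receptor and signalling genes, none passed in B cells by edgeR or DESeq2, none at an unadjusted p under 0.05. In dendritic cells edgeR called 1 of the 13 and DESeq2 2, all lower in NOD.Idd2, where 1.29% of all genes passed by edgeR. At an unadjusted p under 0.05 there were 6 of 13 by edgeR, where 11.3% of all genes were. The median log2 difference of the 13 in dendritic cells was -0.13, with 10 below 0 and 3 above. The difference of strain effects between the cell types passed for 0 of 13 by edgeR, and DESeq2 called 1 as lower. By edgeR 5 of 13 had an unadjusted p under 0.05 there, where 8.22% of all genes did. Of 10 quiescence factors, such as Klf2 and Foxo1 that hold lymphocytes at rest, none passed in either cell type by edgeR or DESeq2. Their median log2 difference was 0.07 in B cells and 0.02 in dendritic cells. By edgeR 1 of 10 per cell type had an unadjusted p under 0.05. Between cell types, 24 of 31 interferon response genes were higher and 5 lower in dendritic cells in NOD, and 20 were higher and 6 lower in NOD.Idd2. Of the 10 quiescence factors, 3 were higher and 7 lower in dendritic cells in both strains. Beside these counts, 37.7% of all genes were higher and 38.7% lower in NOD, and 36.7% and 38.9% in NOD.Idd2.

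Of 39 other genes within 500 kb of the cluster, 21 were tested in each strain comparison. None passed in B cells by edgeR or DESeq2, 1 had an unadjusted p under 0.05, and the median log2 difference was -0.04. In dendritic cells 5 of 21 had an unadjusted p under 0.05, where 11.3% of all genes did, and the median log2 difference was 0.09. Of the 21, 2 rose in NOD.Idd2, where 1.29% of all genes passed in either direction and 0.665% as higher. They were the chemokine genes Ccl9 (log2 0.55, SE 0.11, adjusted p = 0.0363, edgeR) and Ccl6 (log2 0.42, SE 0.09, adjusted p = 0.0365, edgeR). Their annotated spans begin 621.6 and 636.5 kb from that of Slfn5, beyond the last of the 7 members. Beside them, the summed level of 6 monocyte markers was 485 to 684 CPM in NOD and 723 to 731 in NOD.Idd2 dendritic cells. Of these markers 4 had fitted changes above 0 and 2 below, and none was called. The sum was mostly Ccr2 (mean 247 CPM in NOD, 360 in NOD.Idd2) and Csf1r (309 and 352). Ly6c2 (0.714 and 0.593 CPM) and Chil3 (0.622 and 0.501) were near 0. The part of monocytes in the Ccl9 and Ccl6 values was not tested.

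**Figure D5:**
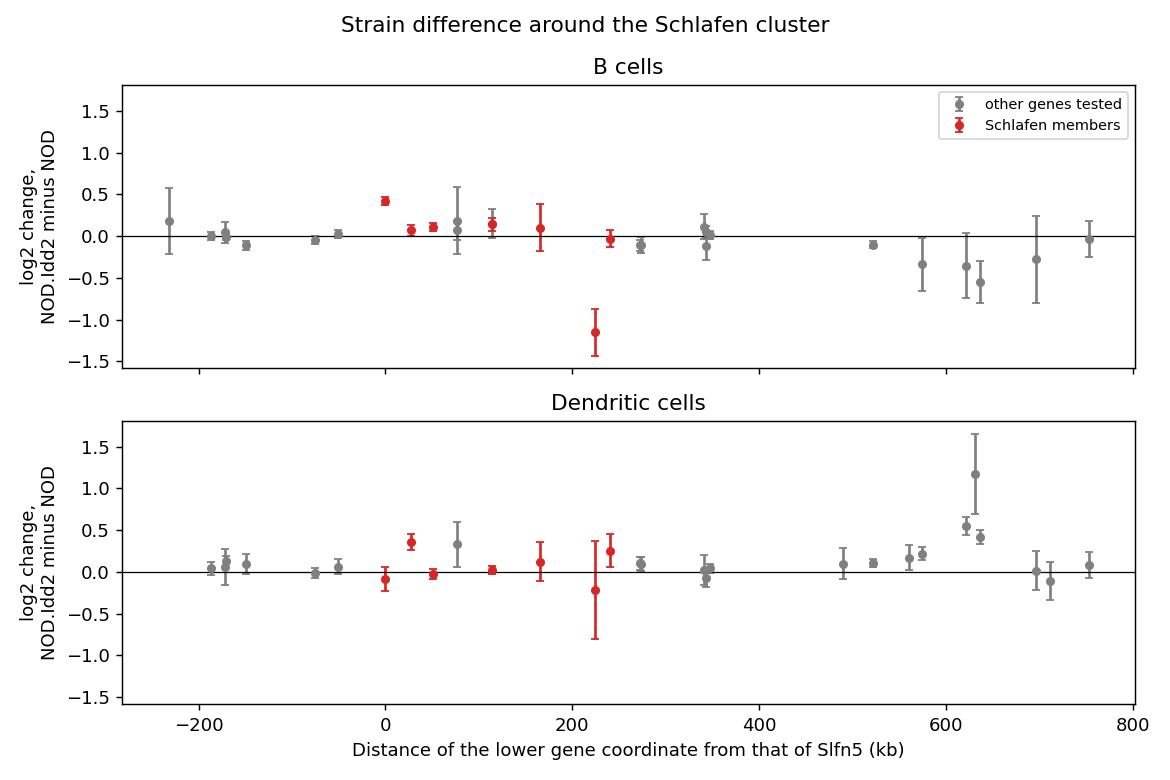
The log2 difference between NOD.Idd2 and NOD against the distance in kb of the lower coordinate of each gene from that of Slfn5, for B cells (top) and dendritic cells (bottom), with Schlafen members in red, other genes in grey and bars for 1 SE. Slfn5, at 0 kb, has a difference of 0.42 in the top panel and -0.08 in the lower one, and Ccl9 and Ccl6 stand at 621.6 and 636.5 kb.

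Of the other Slfn symbols in the table, the pseudogene Slfn10-ps, which shares sequence with Slfn8 and Slfn9, held 584 to 738 counts in B cells and 34 to 60 in dendritic cells. Its level in B cells, 15.4 ± 2.18 CPM in NOD and 16.2 ± 1.46 in NOD.Idd2, was above those of Slfn1, Slfn3 and Slfn4, and per kilobase of exon it was close to that of Slfn9 in NOD (4.26 ± 0.602 against 4.26 ± 0.156 CPM per kilobase). It was lower in dendritic cells, 7.68-fold in NOD (adjusted p = 1.93e-08, edgeR) and 6.53-fold in NOD.Idd2 (adjusted p = 5.94e-08, edgeR). The remaining symbols were near 0. Slfn14, a long member known from platelets and red cell precursors, held 0 to 8 counts, the antisense Slfn5os 0 to 10, and Slfnl1 on chromosome 4 held 0 to 7.

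The genes most like each member in log2 CPM over the 12 libraries, given by Pearson's r as a description, mostly share the cell type difference and its confounded sex. For Slfn5 they were Bscl2 (r = 0.973), Timeless (0.968) and Bin3 (0.967), and for Slfn8 Acot2 (0.993), Galnt6 (0.991) and Irf2bpl (0.991). For Slfn9 they were Pigw (0.965), Cast (0.958) and Lsm8 (0.957), for Slfn2 Cdc34 (0.959), Tatdn2 (0.955) and Abhd17a (0.952), and for Slfn3 Cenpo (0.968), Med18 (0.964) and Mterf4 (0.953). For Slfn1 they included Prpf19 (0.914) and the T cell receptor complex gene Cd3g (0.881). Slfn4, with the fewest counts, had the lowest values, with Mgat5 (0.809), Ube3a (0.785) and Rlim (0.735).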

How the data were processed

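Splenic B cell and dendritic cell RNA from NOD and NOD.Idd2 mice was made, per the labels' protocols, into poly(A) libraries (KAPA HyperPrep) after Trizol extraction. STAR (version written as 0.12.2) and GRCm38 are named in the submitters' processing notes. The authors deposited raw whole-number counts per gene, and their normalized table was not used here. Counting tool, strand setting and handling of multiply matching reads: not given in the sources used here.

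From these counts, strain comparisons were fitted on the 6 libraries of a cell type, and the other contrasts on all 12 libraries, with edgeR 4.0.16 (R 4.3.3): TMM scaling, filterByExpr (minimum count 10, minimum total 15), the quasi-likelihood test and Benjamini-Hochberg adjustment over all genes tested, called at 0.05. All 7 members passed this filter in every main fit. Slfn4 did not pass the alternative filter of at least 1 CPM in 3 libraries. CPM use TMM factors over the 12 libraries. Each SE was derived as the absolute log2 change divided by the square root of the F statistic of the quasi-likelihood test. Intervals were built from that SE, are 95% and are not adjusted for the number of genes. DESeq2 1.42.0 and limma 3.58.1 (voom), other scalings and filters, a replicate block and leaving out each library were the alternatives. Exons and transcripts came from GENCODE M21, and coding sequences were aligned with Biopython 1.88. The scripts were tested on simulated data.

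Same-numbered B cell libraries deviated together (r = 0.619, 0.503 and 0.814 over 10425 genes), though replicates 1 and 2 also matched each other's partners (r = 0.412 and 0.478). Same-numbered dendritic cell libraries did so weakly for replicates 2 and 3 (r = 0.211 and 0.252) and not for replicate 1 (r = -0.001). Between replicates 2 and 3 of the 2 strains r was -0.295 and -0.175, and NOD replicate 2 had 0.147 with NOD.Idd2 replicate 1. No libraries of a group agreed within sampling noise (chi-square per gene at least 3.28).

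The members and lists were chosen with earlier results of these data known. Named were all 7 members, up to 4 called genes of each list by p, called genes within 500 kb of the cluster, and the 3 genes most correlated with each member (mean CPM of at least 5). Some genes that this rule names are not reported here.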

Additional observations from a re-analysis of the deposited data

How the results depend on the processing

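The calls on members rested on few libraries in the strain comparison of B cells. Slfn5 was called in B cells with the replicate block (1 of 7), by DESeq2 and limma-voom and without both replicate 3 libraries, which was added after seeing the data. As this difference led to the choice of the family, these calls are a description and no support for it. The count was 0 of 7 in the fit of all 12 libraries and 0 on leaving out any 1 B cell library, with the log2 difference at 0.39 to 0.44. In dendritic cells the count was 1 without the filter on low counts and 0 with the replicate block, as was the count for the difference of strain effects. The block changed no other call on a member. No paired analysis was possible for the contrasts of cell types because the libraries come from mice of different sex.

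Directions turned only for differences that had not passed the test. Slfn4 in dendritic cells went from -0.22 to 0.10 with limma-voom, to 0.047 with the replicate block and ranged from -0.81 to 0.66 with 1 library left out. With 1 library left out, the strain difference in B cells ranged from -0.28 to 0.35 for Slfn1 and from -0.077 to 0.023 for Slfn3. In dendritic cells it ranged from -0.026 to 0.31 for Slfn1, -0.012 to 0.031 for Slfn2, -0.19 to 0.14 for Slfn5 and -0.080 to 0.021 for Slfn8. The difference of strain effects ranged from -0.23 to 0.39 for Slfn1, and the NOD.Idd2 cell type contrast from -0.20 to 0.62 for Slfn4. Of 548 values for members under alternatives, 517 kept direction and call.

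Over all genes the strain count in B cells was 24, and 122 with DESeq2, 156 with the replicate block, 42 in the 12-library fit, 46 without both replicate 3 libraries and 13 to 18 with 1 library left out. In dendritic cells it was 186, and 296 with DESeq2, 700 without the filter, 94 in the 12-library fit and 63 to 332 with 1 library left out. For the difference it was 18, and 114 with DESeq2, 33 without the filter, 56 with the block and 7 to 19 with 1 library left out. Low counts limit Slfn4, with 3 to 62 a library.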
